A study of Bos taurus with 15 samples.

Results

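The dual-specificity MAP kinase phosphatases were examined in cultured bovine granulosa cells (GC), the somatic cells that line the antral follicle and produce estradiol. The genes were taken by symbol from the platform annotation of the Bovine Gene 1.0 ST Array, in which 9 of the 10 symbols sought were present and DUSP8 was absent. These 9 genes, out of 18010 distinct symbols, are represented by 10 of the 26773 transcript clusters, a cluster being a group of probes that are summarized together as one transcript, and DUSP4 has a pair of them. None of the 10 shared its values with any other cluster of the array.

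The GC came from follicles below 6 mm, aspirated from abattoir ovaries, and were frozen, thawed and cultured for 8 days on collagen in a medium with albumin, insulin and transferrin. All cultures received FSH (20 ng/ml), R3 IGF-1 (50 ng/ml) and androstenedione (2 µM), the substrate of estradiol synthesis. In addition, 5 cultures received 30 mM sodium L-lactate, 5 received 30 mM sodium chloride as vehicle control, and 5 were left untreated. RNA of each culture was measured on 1 array. L-lactate against NaCl compares cells at equal added sodium, whereas NaCl against untreated cells shows what the added salt does.

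MAP kinases are switched on when a kinase adds phosphate to both a threonine and a tyrosine of their activation loop, and the dual-specificity phosphatases remove both again. Several of these phosphatases are themselves transcribed in answer to MAP kinase activity and so act as negative feedback. They differ in place and in target. DUSP1, DUSP2, DUSP4 and DUSP5 are nuclear and inducible, DUSP6, DUSP7 and DUSP9 are cytoplasmic and prefer ERK, and DUSP10 and DUSP16 prefer JNK and p38. In the follicle, ERK relays the LH surge and the EGF-like factors that it releases, and in mice it is required in GC for ovulation and luteinization.

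All values are log2 signals of the authors' RMA summary, so a difference of 1 is a doubling. The array medians ranged from 4.52 to 4.60. The 5 arrays of a group correlated with each other at 0.995 to 0.997, as a description over all clusters. Of 10 GC markers, FSHR, CYP19A1, INHA, INHBA, NR5A2, FOXL2 and GATA4 had mean signals from 7.16 to 11.8. AMH and AMHR2 were at 5.40 to 6.82, and HSD17B1 was at 3.79 to 4.09. Averaged over 6 markers each, the arrays were at 3.35 to 3.65 for endothelium and at 3.73 to 3.99 for leukocytes. Among these, VWF (4.96 to 5.53) and CD14 (4.77 to 5.04) had group means above the array medians. Of the stromal markers, LUM was at 11.6 to 11.8 and DCN at 8.86 to 9.33 in the 3 groups, and TCF21 at 3.83 to 3.98. PDGFRA was at 7.75 to 8.61 and PDGFRB at 6.30 to 6.37. Of the theca markers, INSL3 was at 7.01 to 7.70, NR2F2 at 6.80 to 7.02, PTCH1 at 6.05 to 6.12 and CYP17A1 at 3.78 to 3.97. The stromal and theca markers other than TCF21 and CYP17A1 were above the array medians and thus not absent from the cultures.

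Compared with NaCl, L-lactate raised DUSP5, DUSP6, DUSP1, DUSP7 and the DUSP4 cluster 12825490, and lowered none. The test was limma with adjustment of p over all clusters (Benjamini-Hochberg), and rose or fell is used at an adjusted p under 0.05. These were 5 of 10 member clusters, whereas 22.2% of all clusters passed, 10.7% higher and 11.5% lower. With the additional threshold of a fold change above 1.5, which defines differential expression here, DUSP5 and DUSP6 were left, 2 of 10 member clusters against 1.89% of all clusters (1.28% higher and 0.601% lower). Compared with untreated cells, 6 member clusters rose with L-lactate, those of DUSP1, DUSP5, DUSP6, DUSP7, DUSP10 and DUSP16, and none fell, against 27.1% of all clusters, 13.3% higher and 13.7% lower. Of these, DUSP5 and DUSP1 were differentially expressed, 2 of 10 against 3.27% of all clusters (1.93% higher and 1.33% lower). Between NaCl and untreated cells, DUSP1 and DUSP16 rose and DUSP6 fell, 3 of 10 member clusters against 11.9% of all clusters, 6.13% higher and 5.81% lower. By limma, 0 of them were differentially expressed here (1.15% of all clusters, 0.403% higher and 0.743% lower). An unadjusted p under 0.05 was reached by 6 of the 10. The share of all clusters at that level is not given here, so this count cannot be set against it. In bulk RNA, a change of transcript per cell and a change in the share of cells that express a gene cannot be told apart.

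**Figure D1:**
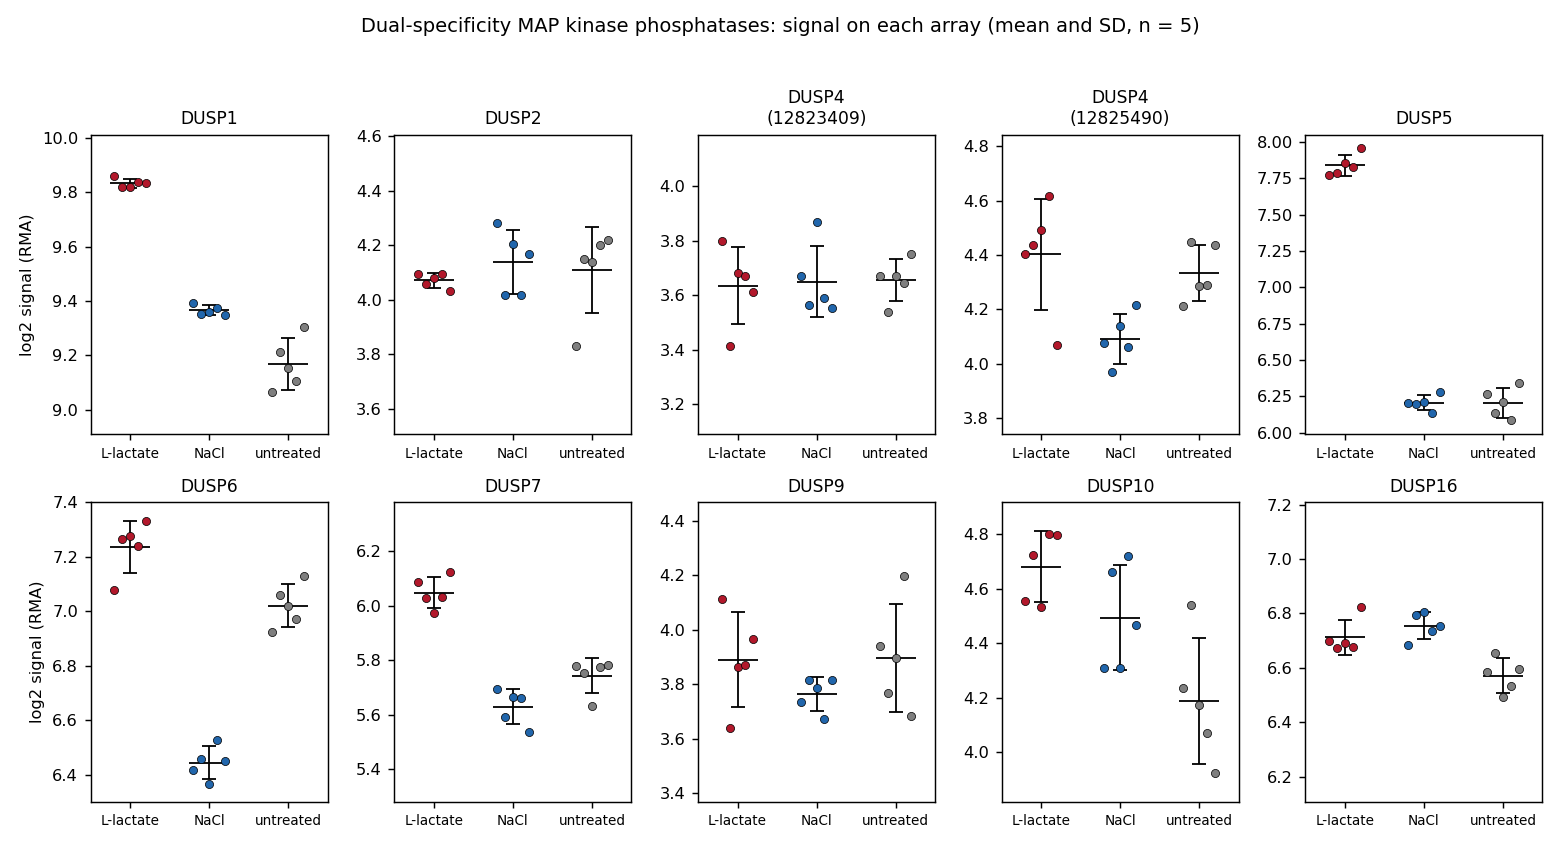
Log2 signal (vertical axes, own range per panel) of the 10 member clusters on each array of L-lactate treated, NaCl treated and untreated cells; points are arrays, the horizontal line is the mean and the bars are the SD (n = 5). DUSP5 lay at 7.77 or above on all L-lactate arrays and at 6.34 or below on all others, whereas DUSP6 was lowest in NaCl treated cells.

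DUSP5 (cluster 12819271) codes for a nuclear phosphatase that is selective for ERK and induced by it. It read 7.77, 7.79, 7.86, 7.83 and 7.96 on the arrays of L-lactate treated cells, against 6.21, 6.20, 6.21, 6.14 and 6.28 in NaCl treated cells and 6.27, 6.13, 6.21, 6.09 and 6.34 in untreated cells. All L-lactate arrays were above all others, by at least 1.43, and the NaCl arrays lay within the range of the untreated arrays. The log2 difference was 1.63 (SE 0.051, adjusted p = 2.2e-11 by limma) from NaCl and likewise 1.63 (adjusted p = 2.9e-11) from untreated cells, a 3.10-fold increase in both comparisons. By size, this difference from NaCl was number 19 of all clusters. NaCl and untreated cells differed by -0.00090 (95% interval -0.11 to 0.11, adjusted p = 0.99), so that a change of DUSP5 by the salt was not detectable within these bounds.

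DUSP1, also known as MKP-1 (cluster 12788100), is an immediate early gene whose product acts on p38, JNK and ERK in the nucleus. Its signal was 9.86, 9.82, 9.82, 9.84 and 9.83 with L-lactate, against 9.39, 9.35, 9.36, 9.37 and 9.35 with NaCl and 9.06, 9.21, 9.15, 9.11 and 9.30 without addition. The 3 groups did not overlap at any point and followed each other in steps, with 0.045 between the nearest NaCl and untreated arrays. L-lactate treated cells were 0.47 above NaCl (SE 0.039, adjusted p = 4.8e-07, 1.38-fold) and 0.66 above untreated cells (adjusted p = 8.4e-09, 1.59-fold). NaCl treated cells were 0.20 above untreated cells (adjusted p = 0.0034). DUSP1 thus passed the fold threshold against untreated cells and not against NaCl. Its SD was 0.017 and 0.018 in L-lactate and NaCl treated cells and 0.094 in untreated cells.

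DUSP4, which codes for a nuclear phosphatase of ERK and JNK, rose compared with NaCl on its cluster 12825490 and not on its other cluster. On cluster 12825490, the signal was 4.40, 4.44, 4.49, 4.62 and 4.07 with L-lactate, 4.08, 3.97, 4.14, 4.06 and 4.22 with NaCl and 4.21, 4.45, 4.28, 4.29 and 4.44 in untreated cells. Among the L-lactate arrays, the fifth replicate lay within the NaCl range and the other 4 above it. The difference from NaCl was 0.31 (SE 0.085, adjusted p = 0.015), and without that array 0.39 (adjusted p = 4.2e-04). Over all single omissions of an array, its adjusted p by limma ranged from 4.2e-04 to 0.042. From untreated cells L-lactate treated cells differed by 0.069 (95% interval -0.11 to 0.25) and NaCl treated cells by -0.24 (adjusted p = 0.086, and 0.017 without that L-lactate array, by which only the estimate of the spread changes). Over all single omissions, the adjusted p of NaCl minus untreated ranged from 0.017 to 0.18 by limma.

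The other DUSP4 cluster, 12823409, averaged 3.64 ± 0.14 (SD, n = 5) with L-lactate, 3.65 ± 0.13 with NaCl and 3.65 ± 0.077 in untreated cells. No pair of groups passed the test, and the 95% interval of L-lactate minus NaCl was -0.17 to 0.14. That interval does not include the 0.31 measured on the first cluster, but it overlaps the interval of that value, 0.13 to 0.49. A difference between the clusters was not tested. DUSP2 (cluster 12707400), a nuclear phosphatase best known from activated lymphocytes in mouse and human, averaged 4.07 ± 0.028 with L-lactate, 4.14 ± 0.12 with NaCl and 4.11 ± 0.16 in untreated cells. Its differences were -0.067 (L-lactate minus NaCl, 95% interval -0.22 to 0.083), -0.037 (L-lactate minus untreated, -0.19 to 0.11) and 0.030 (NaCl minus untreated, -0.12 to 0.18). DUSP2, DUSP9 and both DUSP4 clusters in all groups, and DUSP10 in NaCl treated and untreated cells, have mean signals below the array medians, and detection calls, which would show whether such probes read their transcripts at all, were not used here.

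Among the cytoplasmic phosphatases of ERK, DUSP6 (cluster 12866101) is a widely used readout of FGF and EGF receptor signalling. It read 7.08, 7.26, 7.28, 7.24 and 7.33 in L-lactate treated cells, against 6.42, 6.46, 6.37, 6.53 and 6.45 in NaCl treated cells and 6.92, 7.06, 7.02, 6.97 and 7.13 in untreated cells. The NaCl arrays were below all others, and L-lactate and untreated arrays overlapped, with the first L-lactate replicate inside the untreated range. L-lactate exceeded NaCl by 0.79 (SE 0.051, adjusted p = 3.0e-08, 1.73-fold) and untreated cells by 0.22 (adjusted p = 0.0047, 1.16-fold). With NaCl, DUSP6 fell by 0.58 on the log2 scale relative to untreated cells (adjusted p = 2.4e-06, 1.49-fold lower), just short of the fold threshold. Without NaCl replicate 4, untreated replicate 1 or untreated replicate 4, this difference was -0.60, -0.60 and -0.59 and passed it. The same NaCl arrays enter both of these comparisons.

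DUSP7 (cluster 12797497), a close relative of DUSP6, gave 6.09, 6.03, 5.97, 6.03 and 6.12 with L-lactate, against 5.70, 5.59, 5.66, 5.66 and 5.54 with NaCl and 5.78, 5.75, 5.63, 5.78 and 5.78 in untreated cells. L-lactate arrays were above all others. The differences were 0.42 from NaCl (SE 0.043, adjusted p = 3.2e-06, 1.34-fold) and 0.31 from untreated cells (adjusted p = 5.2e-05), both below the fold threshold. NaCl minus untreated was -0.11 (adjusted p = 0.11). Without untreated replicate 3, which at 5.63 lay away from the other 4, it was -0.14 (adjusted p = 0.039). Over all single omissions of an array, the adjusted p by limma ranged from 0.039 to 0.22.

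DUSP9 (cluster 12905670), the third phosphatase of this group and in mouse essential in the placenta, averaged 3.89 ± 0.17 (SD, n = 5) with L-lactate, 3.76 ± 0.062 with NaCl and 3.90 ± 0.20 in untreated cells. All 3 groups overlapped. The difference of L-lactate was 0.13 from NaCl (95% interval -0.072 to 0.32) and -0.0061 from untreated cells (-0.20 to 0.19), and that of NaCl from untreated cells -0.13 (-0.33 to 0.066).

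Of the phosphatases that prefer JNK and p38, DUSP10 (cluster 12740926) read 4.55, 4.72, 4.53, 4.80 and 4.80 with L-lactate, against 4.31, 4.66, 4.31, 4.72 and 4.47 with NaCl and 4.24, 4.54, 4.17, 4.07 and 3.92 in untreated cells. The L-lactate and NaCl arrays were interleaved, and 4 of the 5 untreated arrays were below all L-lactate arrays. L-lactate minus untreated was 0.49 (SE 0.11, adjusted p = 0.0033, 1.41-fold), with an exact two-sided permutation p of 0.0159 for 5 against 5 arrays. L-lactate minus NaCl was 0.19 (95% interval -0.050 to 0.43, adjusted p = 0.29). NaCl minus untreated was 0.31 (adjusted p = 0.098). Leaving out each array in turn gave 0.24 to 0.39, with adjusted p from 0.020 to 0.22 by limma. The lowest p came without untreated replicate 2, the highest of its group.

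DUSP16 (cluster 12862620), which shuttles between cytoplasm and nucleus, had its highest mean in NaCl treated cells. The signals were 6.70, 6.67, 6.69, 6.68 and 6.82 with L-lactate, against 6.68, 6.79, 6.81, 6.74 and 6.75 with NaCl and 6.58, 6.66, 6.49, 6.53 and 6.60 in untreated cells. L-lactate and NaCl arrays overlapped, and both lay above all untreated arrays by margins of 0.017 and 0.029. DUSP16 rose by 0.14 with L-lactate (SE 0.041, adjusted p = 0.017) and by 0.18 with NaCl (adjusted p = 0.0073) relative to untreated cells. The difference between L-lactate and NaCl was -0.042 (95% interval -0.13 to 0.045).

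**Figure D2:**
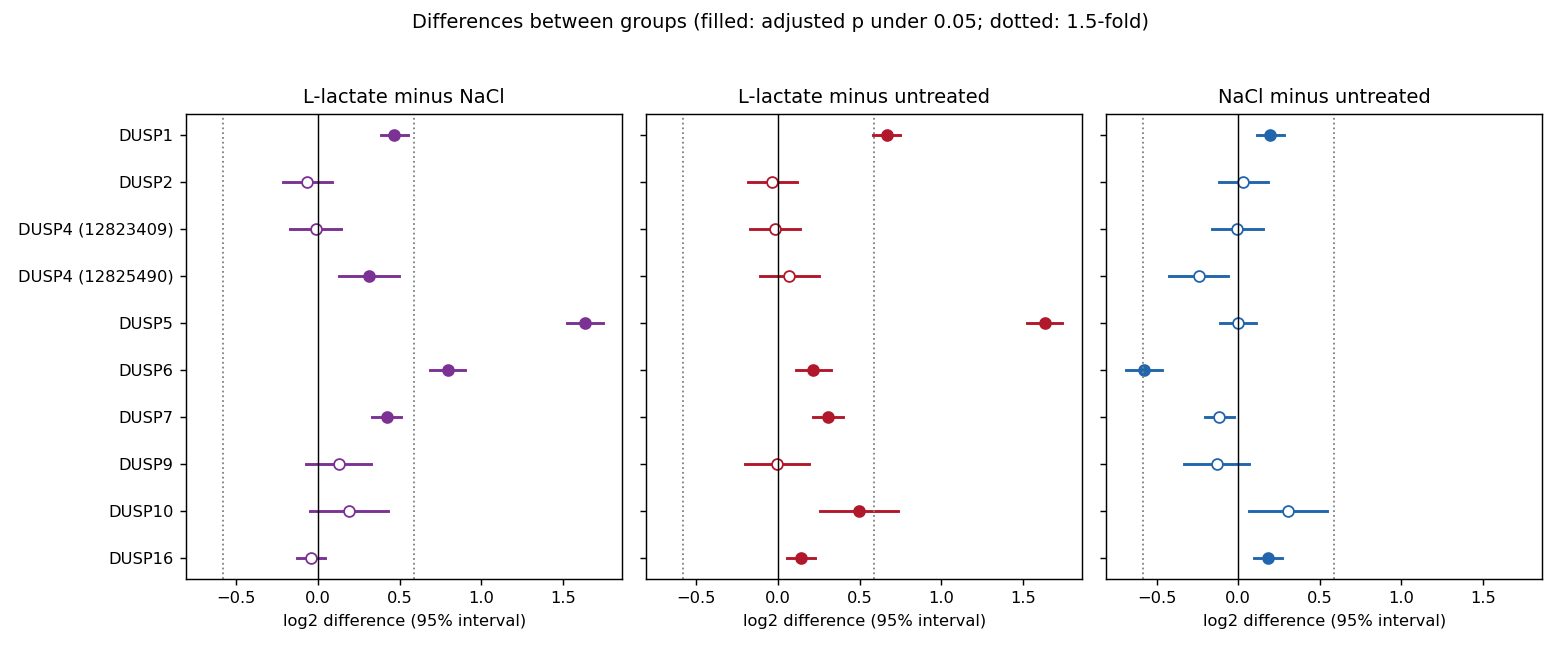
Log2 differences (horizontal axis) of the 10 member clusters in the 3 comparisons, with 95% intervals from limma; filled points have an adjusted p under 0.05 and dotted lines mark 1.5-fold. DUSP5 is at 1.63 in both L-lactate comparisons and at zero for NaCl, whereas DUSP6 is at 0.79 against NaCl and at -0.58 for NaCl against untreated cells.

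The members thus took different orders across the conditions. The order was L-lactate above NaCl above untreated for DUSP1 and L-lactate above untreated above NaCl for DUSP6, with all neighbours past the test at the adjusted p, although L-lactate and untreated arrays overlapped for DUSP6. For DUSP5, L-lactate stood above NaCl and untreated cells, which did not differ beyond their spread. For DUSP7, L-lactate also stood above both, and the interval of NaCl minus untreated (-0.21 to -0.024) lay below zero while its adjusted p missed the threshold. DUSP16 had L-lactate and NaCl, whose difference did not pass the test, above untreated cells. In DUSP10 and the DUSP4 cluster 12825490 only the ends of the order passed, L-lactate above untreated cells in the first and above NaCl in the second. For the DUSP9, DUSP2 and second DUSP4 clusters no difference passed. Over the 10 member clusters, the median difference was 0.25 for L-lactate minus NaCl, 0.18 for L-lactate minus untreated and -0.0032 for NaCl minus untreated, where all clusters had medians of -0.011, -0.015 and 0.0016. The groups did not overlap for 4, 4 and 3 member clusters in these comparisons (19.1%, 22.4% and 11.0% of all clusters). Each group enters a pair of the comparisons, so their values are not independent.

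**Figure D3:**
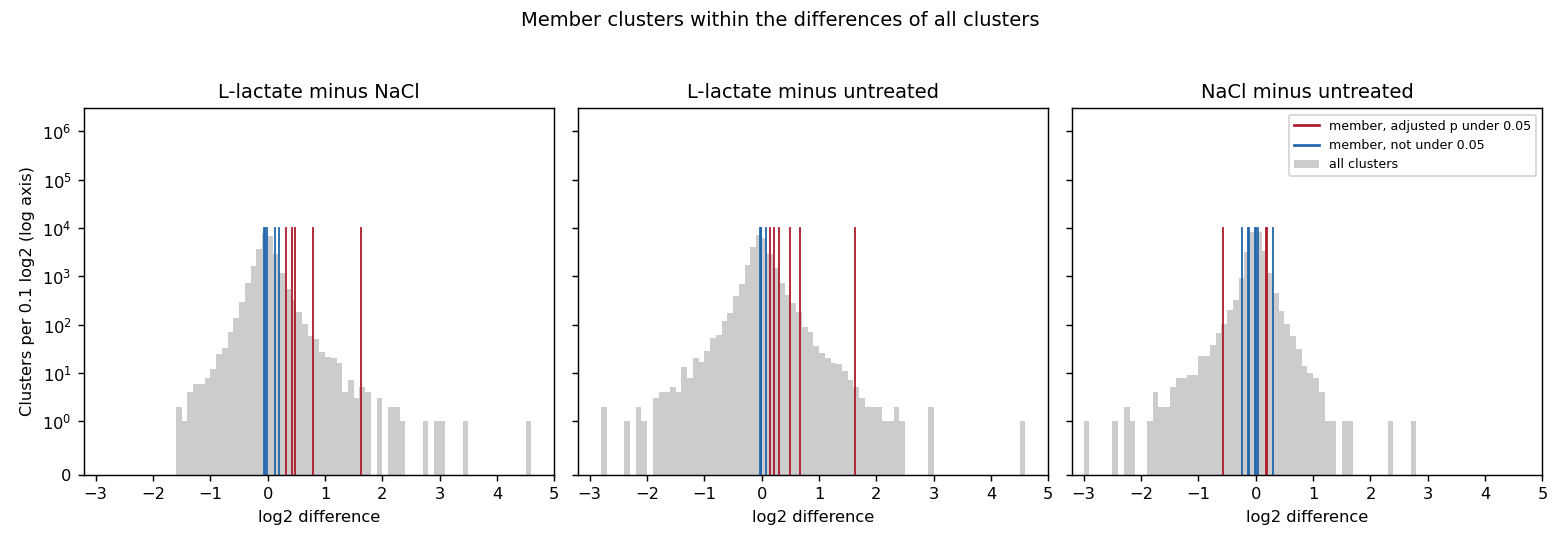
Number of clusters (vertical axis, log scale) by log2 difference (horizontal axis) for all 26773 clusters in grey, with the 10 member clusters as lines whose height carries no value, red where the adjusted p is under 0.05 and blue elsewhere. DUSP5 lies in the right tail of both L-lactate comparisons and near the centre for NaCl against untreated cells.

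The genes whose pattern was most like that of DUSP5, DUSP6 and DUSP1, the members with the largest variance between group means, were found by Pearson's correlation over the 15 arrays, given here as a measure of likeness that rests mainly on the group means. For DUSP5 they were ARRDC4 (r = 0.997), TXNIP (0.996) and SPRY2 (0.995). With L-lactate, with NaCl and in untreated cells, ARRDC4 averaged 8.15, 5.17 and 5.23, and TXNIP 8.76, 4.25 and 4.25. SPRY2, an inhibitor of receptor tyrosine kinase signalling upstream of ERK, averaged 6.85 ± 0.064 with L-lactate, 5.62 ± 0.093 with NaCl and 5.61 ± 0.087 in untreated cells (SD, n = 5). For DUSP6 they were TNFSF18 (0.980), the immediate early gene FOS (0.977) and the anoctamin ANO3 (0.974). TNFSF18 averaged 8.56 with L-lactate, 7.52 with NaCl and 8.25 in untreated cells. FOS read 6.99 ± 0.060 with L-lactate, 6.14 ± 0.051 with NaCl and 6.86 ± 0.11 in untreated cells. That FOS, like DUSP6, was lowest with NaCl follows from its choice by correlation. For DUSP1 they were AGFG2 (0.995) and the lipid synthesis genes ACLY (0.992) and TM7SF2 (0.992), and ACLY averaged 10.8 ± 0.011 with L-lactate, 10.3 ± 0.012 with NaCl and 10.1 ± 0.075 in untreated cells.

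The phosphatases were set beside the rest of the MAP kinase pathway. Of 15 feedback and output genes of ERK, 14 rose and 1 fell with L-lactate compared with NaCl, 8 and 1 of them above 1.5-fold, with a median of 0.66. Of all clusters, 10.7% rose and 11.5% fell in this comparison, and 1.28% and 0.601% did so above 1.5-fold. SPRY2 (1.23), the AP-1 component FOSL1 (1.05) and the cyclin gene CCND1 (0.96) rose most, and the growth-promoting transcription factor gene MYC, which ERK signalling is known to raise, fell by 1.24. Compared with untreated cells, 10 rose and 2 fell (13.3% and 13.7% of all clusters), 9 and 1 of them above 1.5-fold (1.93% and 1.33%). Those that fell were MYC (-1.17) and EGR1 (-0.28), whereas EGR1 was among the genes that rose compared with NaCl (0.66). In NaCl against untreated cells, 4 rose and 3 fell (6.13% and 5.81%). The largest differences in this last comparison were those of SPRY1 (1.04), EGR1 (-0.94), FOS (-0.72) and SPRY4 (0.51). The remaining genes that passed went in both directions, and 8 of the 15 did not pass. Some of these genes were known to respond in these samples when the list was written. SPRY2 and FOS are also among the genes chosen above for their likeness to DUSP5 and DUSP6.

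**Figure D4:**
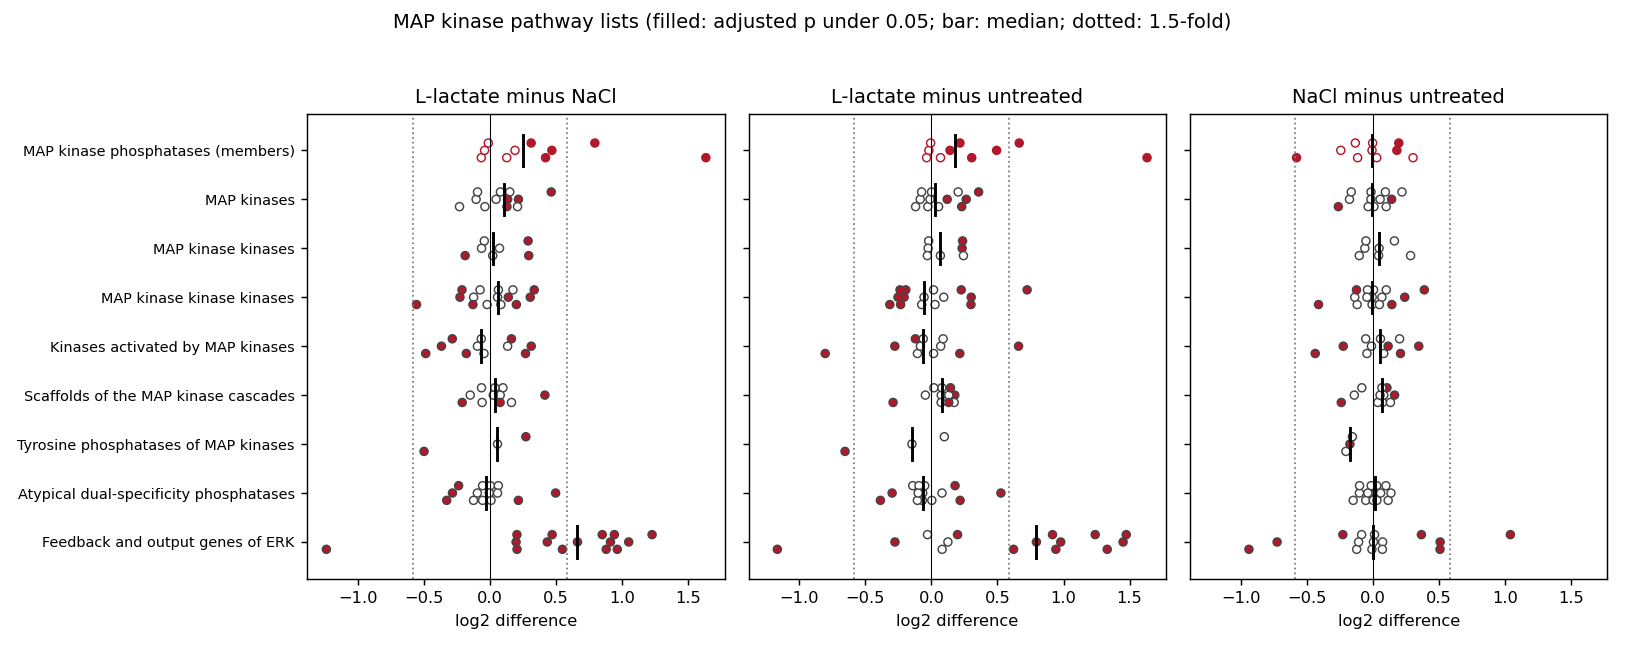
Log2 differences (horizontal axis) of the member clusters and of the measured genes of 8 lists of the MAP kinase pathway, a point per gene or member cluster, filled at an adjusted p under 0.05, with the median as a bar and 1.5-fold as dotted lines. Kinases and scaffolds lie mostly within 1.5-fold, whereas most ERK output genes lie to the right in both L-lactate comparisons.

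In L-lactate against NaCl, 10.7% of all clusters rose and 11.5% fell, and 1.89% passed both the test and 1.5-fold. No kinase of these lists passed 1.5-fold in this comparison. Of 12 MAP kinases with a cluster, 4 rose and none fell, and MAPK3, which codes for an ERK, had a difference of 0.21 (adjusted p = 0.0013). MAP2K1, which activates ERK, rose by 0.29 and was among the 2 of 7 MAP kinase kinases that rose, while MAP2K5 fell by 0.19. Of 15 MAP kinase kinase kinases, 4 rose and 4 fell, and MAP3K5, an activator of JNK and p38 under oxidative stress, fell by 0.56. Among 11 kinases activated by MAP kinases 3 rose and 4 fell, and among 11 scaffolds 2 rose, KSR1 of the ERK cascade by 0.41, and 1 fell. The medians of these lists in this comparison lay between -0.067 and 0.10. Compared with untreated cells, 3 kinases of all these lists passed 1.5-fold with L-lactate, against 3.27% of all clusters (1.93% higher and 1.33% lower). MAP3K1, an upstream activator of the JNK and ERK cascades, rose by 0.72 and RPS6KA1, a ribosomal S6 kinase activated by ERK, by 0.66, while MKNK2, a kinase of the translation factor eIF4E, fell by 0.80 on the log2 scale. With NaCl compared with untreated cells, these genes moved in the same directions, each by less than 1.5-fold. MAP3K1 differed by 0.39, RPS6KA1 by 0.35 and MKNK2 by -0.44 (adjusted p = 2.0e-06, 5.4e-04 and 2.5e-05 by limma).

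Phosphatases outside the group were examined in the same way. The list of atypical dual-specificity phosphatases had 14 measured genes, most of which lack the domain for docking to MAP kinases. Of these 14, 2 rose and 3 fell with L-lactate compared with NaCl (22.2% of all clusters passed). Compared with untreated cells, 3 rose and 2 fell (27.1%). None of these changes exceeded 1.5-fold (1.89% and 3.27% of all clusters were differentially expressed). DUSP15 had the largest difference from NaCl in this list, with 8.73 in L-lactate treated and 8.23 in NaCl treated cells on average (difference 0.50, adjusted p = 1.7e-06), followed by STYXL1 with -0.33 and DUSP12 with -0.29. In NaCl against untreated cells, 0 of the 14 passed the test by limma (11.9% of all clusters passed). An unadjusted p under 0.05 was reached by 2, a level for which no share of all clusters is given. Of the 3 tyrosine phosphatases that act on MAP kinases, PTPN5 rose by 0.27 and PTPRR fell by 0.50 compared with NaCl (22.2% of all clusters passed). PTPRR fell by 0.65 compared with untreated cells (27.1%), which exceeded 1.5-fold. PTPN5 did not pass in that comparison (0.098, adjusted p = 0.15 by limma), and with NaCl it fell by 0.17 relative to untreated cells (11.9%).

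Markers of GC and of other cell types differed between the groups as well. With L-lactate compared with NaCl, 7 of 10 GC markers fell and none rose (11.5% and 10.7% of all clusters), among them the aromatase gene CYP19A1 with -1.22, AMH with -0.74 and FOXL2 with -0.58. Compared with untreated cells, 2 rose and 6 fell with L-lactate (13.3% and 13.7% of all clusters), and 7 rose and 1 fell with NaCl (6.13% and 5.81%). Averaged over the 10 markers, the arrays were at 7.83 to 7.95 with L-lactate, 8.26 to 8.37 with NaCl and 8.08 to 8.18 in untreated cells. Of 5 stromal markers, PDGFRA (0.59) and DCN (0.48) rose with L-lactate compared with NaCl. Compared with untreated cells, PDGFRA rose with L-lactate (0.86) and NaCl (0.28), and LUM fell with each (-0.12 and -0.12). DCN fell with NaCl (-0.35) and did not pass with L-lactate (0.13, adjusted p = 0.33 by limma). Over the 5, the arrays averaged 7.92 to 7.99 with L-lactate, 7.64 to 7.87 with NaCl and 7.77 to 7.87 in untreated cells. Of 4 theca markers, INSL3, a hormone of theca cells, fell by 0.69 with L-lactate and by 0.64 with NaCl relative to untreated cells, and NR2F2 fell by 0.20 with L-lactate compared with NaCl and by 0.22 compared with untreated cells. The arrays averaged 5.82 to 6.13 with L-lactate, 5.84 to 6.13 with NaCl and 6.05 to 6.40 in untreated cells over these 4, of which CYP17A1, the androgen-producing enzyme of theca cells, was at 3.78 to 3.97. Of 6 endothelial markers, VWF rose by 0.31 and KDR fell by 0.30 with L-lactate compared with NaCl, VWF rose by 0.57 and KDR fell by 0.51 compared with untreated cells, and VWF rose by 0.25 with NaCl compared with untreated cells. Of 5 oocyte markers, 1 passed the test, the zona pellucida gene ZP2, which fell by 0.17 with L-lactate compared with untreated cells. Of 6 leukocyte markers, 0 passed the test by limma in L-lactate against NaCl, L-lactate against untreated and NaCl against untreated cells. Of all clusters, 22.2%, 27.1% and 11.9% passed in these comparisons. An unadjusted p under 0.05 was reached by 1, 0 and 1 of the markers, a level for which no share of all clusters is given. The part of these shifts in the values of DUSP1, DUSP5, DUSP6 and DUSP7 was not tested.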

How the data were processed

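As given in the submitters' notes and the study's methods, the authors reduced background, normalized the arrays and summarized the probes of each transcript cluster by RMA, using the Affymetrix Expression Console (1.4.1.46), and deposited the results on a log2 scale. All 26773 clusters entered the tests unchanged and unfiltered, and raw scans were not analysed here. How many cell pools lie behind the 5 cultures of a group is not given in the labels, so p-values cover only the spread between these samples, which may be technical. The number of arrays limits the precision.

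The platform annotation gave 18457 clusters exactly 1 symbol, 688 several and 7628 none; only the first were used for names, and all 10 member clusters had the same symbol in the bovine RefSeq table. A listed gene with several clusters was read from that with the highest mean signal.

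A single limma model (3.58.1, R 4.3.3) held the 15 arrays with a coefficient for each group. P-values were adjusted over all clusters (Benjamini-Hochberg), and the study's thresholds were kept (adjusted p under 0.05, fold change above 1.5). Confidence intervals (95%) rest on the moderated spread. Permutation tests were exact over the 252 labellings of 5 against 5 arrays and can give no p below 0.00794. From each list, at most 4 genes per comparison were named, those with the largest differences that passed the test. Members and lists were chosen with earlier results of these data known. The code was tested on simulated data.

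Alternatives comprised fitting 10 arrays at a time, omitting variance moderation, adding an intensity trend, a replicate block or a signal filter at 4, centring the arrays on their medians, changing the fold threshold, counting every cluster of a listed gene, and leaving out arrays singly. Figures were drawn with matplotlib 3.10.9.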

Additional observations from a re-analysis of the deposited data

Results flagged for a closer look

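Within the groups of 5 arrays, 57 sets of values (10 member clusters and 9 genes of similar pattern in 3 groups) were checked for an array far from the other 4, and 4 exceeded the critical value of Dixon's test, where chance gives about 1 in 20. DUSP2 read 3.83 on untreated replicate 1, against 4.14 to 4.22 on the others. Without it NaCl minus untreated was -0.039 for DUSP2 (adjusted p = 0.72 by limma). DUSP7 read 5.63 on untreated replicate 3, against 5.75 to 5.78. DUSP16 read 6.82 on L-lactate replicate 5, against 6.67 to 6.70, and without it L-lactate minus untreated was 0.11 (adjusted p = 0.047). AGFG2 read 8.22 on L-lactate replicate 2, against 8.27 to 8.29.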

How the results depend on the processing

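The numbers of member clusters per comparison were 2, 2 and 0 differentially expressed (L-lactate minus NaCl, L-lactate minus untreated, NaCl minus untreated) under each of the 6 alternative fits and settings of signal and scale, among them the replicate block. With the replicate block, 5, 6 and 3 member clusters had an adjusted p under 0.05, as without it, and 507, 873 and 302 of all clusters were differentially expressed. The labels do not say that equal numbers pair the cultures, and after subtraction of group means the 15 correlations of same-numbered arrays lay between -0.065 and 0.065. With a fold threshold of 1.2, the comparisons had 2775, 3676 and 1458 clusters in all and 5, 4 and 1 member clusters; without a fold threshold, 5941, 7254 and 3195 clusters and 5, 6 and 3 member clusters. Leaving out each array in turn gave 2 to 2, 2 to 2 and 0 to 1 differentially expressed member clusters, the last being DUSP6.

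Of 174 values of single members under these settings, 168 kept direction and side of the threshold. Near zero, median centring turned the sign of DUSP5 (0.014) and of the DUSP4 cluster 12823409 (0.0090) for NaCl minus untreated, and of that DUSP4 cluster (0.0050) and DUSP9 (0.018) for L-lactate minus untreated. For the DUSP4 cluster 12825490, NaCl minus untreated (-0.24) passed the test in the fit of 10 arrays (adjusted p = 0.030 by limma) and after the signal filter (0.047). Leaving out an array turned signs only of differences near zero, with ranges of -0.055 to 0.042, -0.060 to 0.036 and -0.060 to 0.019 for the DUSP4 cluster 12823409 in the 3 comparisons, -0.062 to 0.069 for DUSP9 (L-lactate minus untreated), and -0.039 to 0.060 for DUSP2 and -0.032 to 0.033 for DUSP5 (NaCl minus untreated). Counting all clusters of a gene changed no list count by more than 1.5 times. The causes were not tested.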
